A study of Mus musculus with 10 samples.

Results

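Ribosome footprints of mouse embryonic stem cells labelled as Dgcr8 knockout were compared with those of wild-type (WT) cells. The values compared are those of 4 of the 10 libraries of the series, 2 from the Dgcr8 knockout and 2 from WT, for every gene of the count table. Library scaling and the spread between replicates were estimated from all 10 libraries. Of 11011 genes in the table, 10978 had enough counts to be tested. All cells were of the line E14, a 129/Ola embryonic stem cell line derived from blastocysts, grown on gelatine in serum with LIF, the cytokine that keeps such cells undifferentiated. The other 6 libraries came from the same line labelled as knockout of Drosha, of Dicer, and of Ago1 and Ago2 together (Ago1/2), with 2 libraries each. The labels do not say how the alleles were made, whether a line is 1 clone, or whether the 2 libraries of a group came from separate cultures, so p-values here measure only the spread between these samples. No mRNA libraries were analysed here, and a difference in footprints therefore includes any difference in the amount of mRNA.

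Dgcr8 is the RNA-binding partner of the nuclease Drosha. Together they form the Microprocessor, which cuts hairpins out of primary miRNA transcripts in the nucleus. Dicer then trims the released hairpins, and Argonaute (Ago) proteins carry the mature miRNA to the mRNAs it silences. In mouse embryonic stem cells most miRNA comes from a few clusters, above all miR-290 to miR-295, whose miRNAs promote the cell cycle. The Microprocessor is also known to cut hairpins that lie inside the Dgcr8 mRNA itself, and so to hold down the amount of its own subunit.

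Total counts were 80850950 and 4955916 in the 2 Dgcr8 libraries and 11082243 and 23731070 in the 2 WT libraries, with 1754710 to 35168638 in the other 6. The 2 Dgcr8 libraries stood apart from each other. Across genes, which are not independent replicates, their log2 CPM, counts scaled to a common library size, correlated with r of 0.928, while the first Dgcr8 library correlated with r of 0.959 with the first WT library, and the WT libraries with r of 0.977 with each other. Between the Dgcr8 libraries 1757 genes (16%) were more than 1 log2 unit apart, against 416 genes (3.79%) between the WT libraries. Values are therefore given for each library, the first library before the second.

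Dgcr8 itself had more footprints, not fewer, in the libraries labelled as its knockout. It had 144.8 and 145.6 CPM in the Dgcr8 libraries and 32.7 and 33.1 CPM in the WT libraries. Both Dgcr8 libraries thus lay far above both WT libraries, and the log2 fold change was 2.14 (SE 0.26, adjusted p = 0.0153, edgeR quasi-likelihood test with Benjamini-Hochberg adjustment). Counts per gene do not show which exons the footprints came from, so a deletion of part of the gene cannot be checked here. For this reason the libraries are called Dgcr8 libraries by their label alone. The Drosha libraries, which share the WT controls of this comparison, had 169.3 and 197.5 CPM of Dgcr8, the Dicer libraries 64.5 and 76.1 CPM, and the Ago1/2 libraries 74.6 and 63.5 CPM. Set directly against the Dicer libraries, Dgcr8 was higher in the Dgcr8 libraries (log2 1.05, adjusted p = 0.0441), whereas the difference from the Drosha libraries was -0.34 (adjusted p = 0.66) and that from the Ago1/2 libraries 1.07 (adjusted p = 0.0879), all by edgeR. The call against WT was lost when Dgcr8 library 2 was left out (adjusted p = 0.0827) and when WT library 1 (adjusted p = 0.244) or WT library 2 (adjusted p = 0.441) was, with log2 values of 2.14 to 2.15 (edgeR).

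The hairpins that the Microprocessor is known to cut lie at the 5′ end of the Dgcr8 mRNA, and are shown because the gene's own footprints differed between the groups. Dgcr8 lies on chromosome 16 from 18253948 to 18289246 (GRCm38, minus strand), and the hairpin of Mir1306 lies in the coding part of its exon 2 at chr16:18284239-18284317. The 2 mature arms of Mir1306 are in capitals. The sequences are from RefSeq on GRCm38.p6.
Mir1306 hairpin: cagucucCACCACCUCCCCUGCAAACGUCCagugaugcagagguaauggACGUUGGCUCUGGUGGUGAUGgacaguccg
A second miRNA, miR-3618, is annotated in the 5′ untranslated part of the same exon, at chr16:18284602-18284623 for its 5p arm. Its seed, bases 2 to 8, is in capitals.
mmu-miR-3618-5p: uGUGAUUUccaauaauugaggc

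For the other targeted proteins of the pathway no difference passed the test. Drosha had 165.1 and 270 CPM in the Dgcr8 libraries and 177.1 and 177.5 CPM in WT (log2 fold change 0.29 with an SE of 0.30, adjusted p = 0.824). One Dgcr8 library was below and the other above WT, and the estimate was -0.10 without the second Dgcr8 library. Dicer1 had 160.3 and 168.6 CPM in the Dgcr8 libraries and 121.8 and 124.2 CPM in WT (log2 0.42, adjusted p = 0.762). Ago1 had 24.9 and 38.3 CPM in the Dgcr8 libraries and 14.7 and 14.3 CPM in WT (log2 1.11, adjusted p = 0.391), and Ago2 had 106.7 and 99.8 CPM in the Dgcr8 libraries and 81.9 CPM in both WT libraries (log2 0.34, adjusted p = 0.829). The other knockout libraries are likewise called by their labels. Drosha had 24.3 and 34.5 CPM in the Drosha libraries, and Dicer1 15.8 and 22.1 CPM in the Dicer libraries. In the Ago1/2 libraries Ago2 had 14.9 and 6.61 CPM, whereas Ago1 had 27 and 10.7 CPM, of which the first is above both WT libraries. For Dicer1, Ago1 and Ago2 both Dgcr8 libraries were above both WT libraries. That separation was found in 2411 of all genes tested (22%) in this direction and in 2510 (22.9%) in the other.

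Among 20 genes of the Microprocessor and of miRNA maturation, 8 were higher in both Dgcr8 libraries than in both WT libraries and 2 were lower, with Dgcr8 as the 1 called member and a median log2 fold change of 0.17. Over all genes tested the median was 0.02, with 22% higher and 22.9% lower in both Dgcr8 libraries. Besides Dgcr8, members of this list included Ddx5, an RNA helicase of the Microprocessor, at 484.9 and 548.9 CPM in the Dgcr8 libraries and 409.6 and 346.5 CPM in WT, and the nuclear exporter of precursor miRNAs, Xpo5, at 285.2 and 421 CPM in the Dgcr8 libraries and 242 and 272.8 CPM in WT. Dis3l2, an exonuclease that degrades uridylated precursors of let-7, had 46.9 and 31.9 CPM in the Dgcr8 libraries and 47.9 and 65.5 CPM in WT (log2 -0.52, adjusted p = 0.70), and was lower in both. Of 22 silencing effectors, 11 were higher in both Dgcr8 libraries and 1 was lower, with 0 members called and a median of 0.16. They included Ago1, the poly(A)-binding protein Pabpc1 (497.7 and 867.6 CPM in the Dgcr8 libraries, 409.2 and 337.3 CPM in WT) and Tnrc6a, the scaffold that links Ago to deadenylases (34.8 and 56.4 CPM in the Dgcr8 libraries, 28.3 and 20.9 CPM in WT).

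Across all genes, 8 passed an adjusted p of 0.05 (0.0729%). In the Dgcr8 libraries 6 rose (0.0547%) and 2 fell (0.0182%). With the 4 Dgcr8 and WT libraries fitted alone, edgeR called 0 genes, with 1335 at an unadjusted p under 0.05. Smyd1, a histone methyltransferase of striated muscle, had 2.97 and 4.58 CPM in the Dgcr8 libraries and 0.18 and 0.17 CPM in WT (log2 fold change 4.34 with an SE of 0.52, adjusted p = 0.0153). Lgals3, galectin-3, which binds galactoside sugars, had 91.5 and 162.6 CPM in the Dgcr8 libraries and 23 and 10.9 CPM in WT (log2 fold change 2.92 with an SE of 0.40, adjusted p = 0.0229). Nexmif, an X-linked gene named for its role in neurite extension, had 49.8 and 112 CPM in the Dgcr8 libraries and 13.6 and 12.6 CPM in WT (log2 fold change 2.62 with an SE of 0.37, adjusted p = 0.0251). In none of these 3 did the groups overlap. For Smyd1 the first WT value lies below 3 counts, which are 0.271 CPM in that library, so its fold is imprecise. Dusp27, a catalytically dead phosphatase known from muscle, had 135.9 and 180.9 CPM in the Dgcr8 libraries and 34.3 and 28.7 CPM in WT (log2 fold change 2.33 with an SE of 0.32, adjusted p = 0.0229). Crmp1, a cytoskeletal protein of axon guidance, had 60.2 and 58 CPM in the Dgcr8 libraries and 15.6 and 14 CPM in WT (log2 fold change 2.00 with an SE of 0.30, adjusted p = 0.041). In these 2 genes too, the groups did not overlap. Adjusted p-values here and below come from the same edgeR fit, adjusted over all genes, unless another fit is named.

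The 2 genes that fell were Grb10 and Myh9. Grb10, an imprinted adaptor that dampens insulin and IGF receptor signalling, had 34.8 and 9.76 CPM in the Dgcr8 libraries and 471.9 and 575.8 CPM in WT (log2 fold change -4.51 with an SE of 0.56, adjusted p = 0.0153). Myh9, the heavy chain of a non-muscle myosin, had 89.2 and 105.8 CPM in the Dgcr8 libraries and 455 and 719.1 CPM in WT (log2 fold change -2.59 with an SE of 0.34, adjusted p = 0.0189, edgeR). Both Dgcr8 libraries were several-fold below either WT library for each gene. Both were also below the other knockouts when set directly against them. Grb10 was lower than in the Drosha libraries (log2 -3.54, adjusted p = 0.0239), the Dicer libraries (-3.11, adjusted p = 0.0115) and the Ago1/2 libraries (-3.56, adjusted p = 0.0188), and Myh9 likewise (-2.75, -2.83 and -2.29, adjusted p = 0.00846, 0.00399 and 0.0159, all edgeR).

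**Figure D1:**
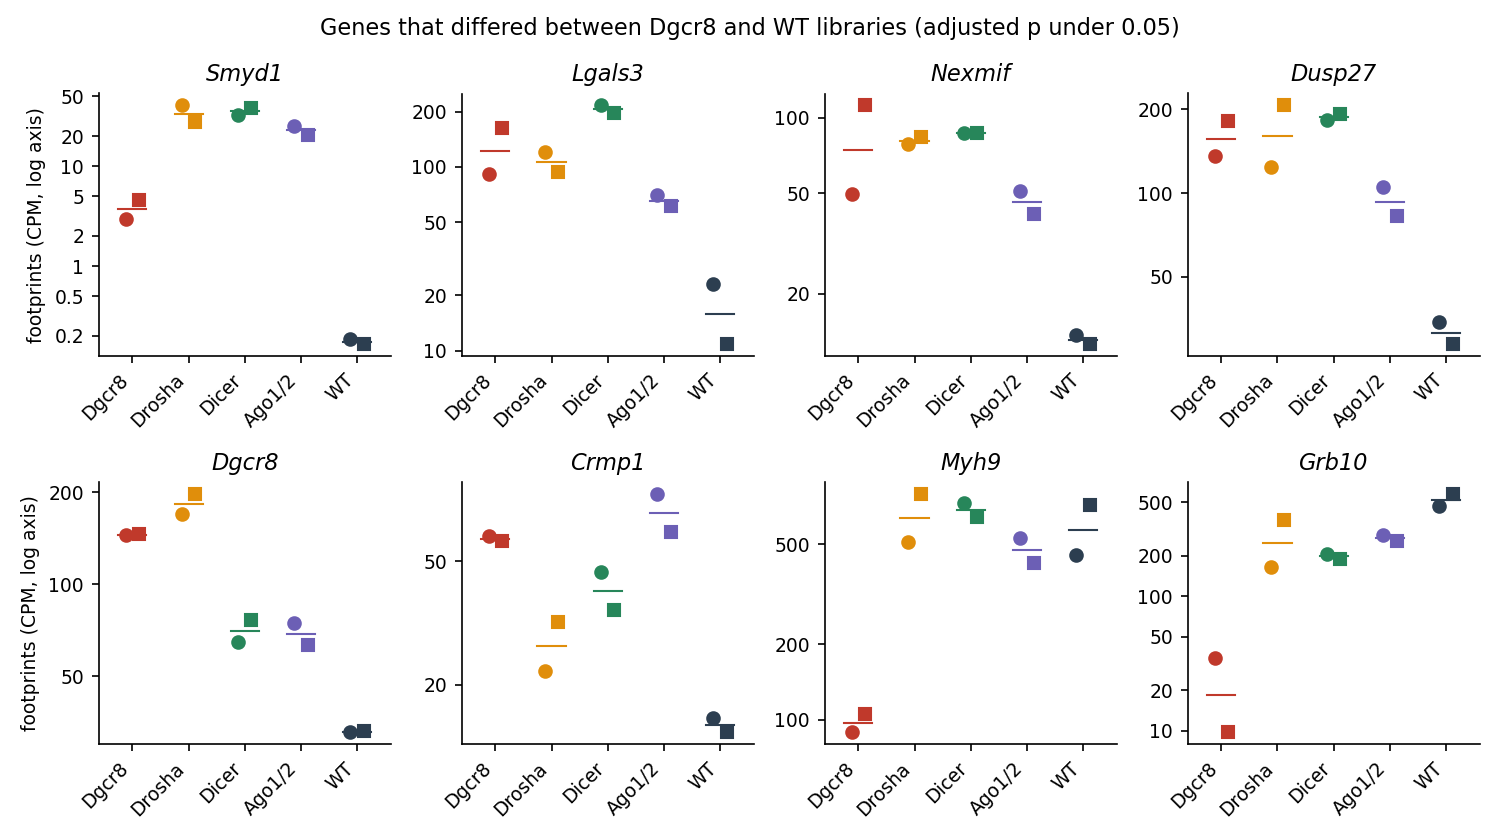
Footprints in CPM (log axis) of the 8 genes with an adjusted p under 0.05 between Dgcr8 and WT, in all 10 libraries. Circles are the first library of a group, squares the second, and lines their geometric mean; Grb10 and Myh9 are lowest in the 2 Dgcr8 libraries, while Smyd1 lies between WT and the other knockouts.

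These calls depended on single libraries. Leaving out Dgcr8 library 1 gave 107 calls in place of 8, and leaving out Dgcr8 library 2 gave 0, with 704 genes at an unadjusted p under 0.05 (edgeR). Leaving out WT library 1 gave 2 calls, WT library 2 gave 0 with 439 genes at that unadjusted p, and Dicer library 2 gave 3. With all libraries 1077 genes had an unadjusted p under 0.05, 560 higher (5.1%) and 517 lower (4.71%).

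The next genes in order of unadjusted p, among those reaching 20 CPM in the higher group with no overlap of the groups, did not pass the adjustment. On the higher side, Impact, an imprinted inhibitor of the stress kinase Gcn2, had 172.9 and 202.8 CPM in the Dgcr8 libraries and 71.9 and 69.4 CPM in WT (log2 1.41, adjusted p = 0.154). Plekhg1 had 66.8 and 65.9 CPM in the Dgcr8 libraries and 14.8 and 10.5 CPM in WT (log2 2.39, adjusted p = 0.198). Zic2, a transcription factor of primed pluripotency and neural development, had 11.5 and 34.1 CPM in the Dgcr8 libraries and 3.69 and 3.94 CPM in WT (log2 2.54, adjusted p = 0.21). These values of Zic2 and of Nlrp9b, a sensor of the NLR family, were unequal between the Dgcr8 libraries. Nlrp9b had 11.1 and 69.5 CPM in the Dgcr8 libraries and 2.3 and 1.24 CPM in WT (log2 4.53, adjusted p = 0.198). Nsmaf, Arl14epl and Pdzd2 completed this group with log2 fold changes of 1.81 to 2.77.

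On the lower side, Moxd1, a monooxygenase of the dopamine beta-hydroxylase family, had 9.85 and 3.39 CPM in the Dgcr8 libraries and 45.5 and 33.7 CPM in WT (log2 -2.51, adjusted p = 0.21). Fbxo11, the substrate receptor of a ubiquitin ligase, had 24.9 and 18.1 CPM in the Dgcr8 libraries and 57.6 and 49.8 CPM in WT (log2 -1.31, adjusted p = 0.21). Ddit4, a stress-induced inhibitor of mTORC1, had 66.8 and 29.7 CPM in the Dgcr8 libraries and 147.1 and 257.8 CPM in WT (log2 -2.06, adjusted p = 0.214). None of the 3 passed, although their groups did not overlap. Of the other 7, Abcb6, Rps6kc1, Ttll4 and Kif21b lie on chromosome 1, whose genes as a whole were lower than in WT, with log2 fold changes of -1.88 to -1.34. Aldoc, Ndufaf7 and Stc2 had log2 fold changes of -2.84 to -1.45.

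Genes of the integrated stress response were lower in the Dgcr8 libraries as a list. In this response, stalled or unfed ribosomes and other stresses lead to phosphorylation of eIF2, preferential translation of Atf4, and transcription of genes for amino acid synthesis and import by Atf4. Of 36 members, 30 were lower in both Dgcr8 libraries than in both WT libraries, against 22.9% of all genes, and 1 was higher, against 22%. No member was called, 16 were lower at an unadjusted p under 0.05, and the median log2 fold change was -1.04, against 0.02 over all genes. The secreted glycoprotein Stc2 had 46.9 and 7.57 CPM in the Dgcr8 libraries and 196.6 and 206.6 CPM in WT (log2 -2.84, adjusted p = 0.256). Pck2, the mitochondrial enzyme that makes phosphoenolpyruvate, had 250.4 and 75.1 CPM in the Dgcr8 libraries and 570.6 and 505.4 CPM in WT (log2 -1.72, adjusted p = 0.295). Phgdh, the first enzyme of serine synthesis, had 51.3 and 22.9 CPM in the Dgcr8 libraries and 90.2 and 97.3 CPM in WT (log2 -1.32, adjusted p = 0.28). In each of them the second Dgcr8 library was the lowest of the 4.

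The distance below WT differed between the Dgcr8 libraries. The median difference from the WT mean was -0.49 in the first Dgcr8 library and -2.21 in the second. Counted one at a time, the first library was below both WT libraries in 30 of 36 members (38.2% of all genes) and the second in 31 of 36 (42.3% of all genes), whereas each was above both WT libraries in 2 members (38.7% and 40.4% of all genes). Atf4 itself had 199.1 and 25.3 CPM in the Dgcr8 libraries and 242.4 and 206.8 CPM in WT. The 6 members outside the pattern were Slc7a3, higher in both Dgcr8 libraries, and Atf5, Cbs, Sesn2, Slc38a2 and Ppp1r15a, whose groups overlapped, with log2 fold changes of -0.61 to 0.52. The medians of the same list in the Drosha, Dicer and Ago1/2 knockouts, which share the WT libraries, were -0.75, -0.66 and -0.29. Set directly against those knockouts, the Dgcr8 libraries had medians of -0.49, -0.51 and -0.83, with 2 members called lower against Dicer, and 1 called lower and 1 called higher against Ago1/2. By its list median against WT, the second Dgcr8 library (-2.21) lay below all of these knockouts. The first (-0.49) lay above Drosha and Dicer and below Ago1/2.

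Promoters of the list were searched for TGATGNAA, the letters of the composite element that Atf4 binds with its partners, on both strands of the 300 bases from 250 before to 50 after the annotated start. Of the 32 members with a promoter in the RefSeq set, 10 held a match (31.2%), against 231 of 8707 genes tested (2.65%). The median log2 fold change was -1.57 over the members with a match and -0.93 over those without, beside 0.00 and 0.02 over all genes tested with and without one. A match describes letters and is not a measured binding site. Because the list holds genes of a response known to run through Atf4, a raised share of this element is built in. The windows of Pck2 and of Chac1, a glutathione-degrading enzyme, are shown as members with 1 match each, in capitals, which on these strands reads as the reverse complement of the searched letters. Chac1 had 35.3 and 1.99 CPM in the Dgcr8 libraries and 66.8 and 67.1 CPM in WT (log2 -1.77, adjusted p = 0.503). Sequences are from RefSeq on GRCm38.p6, plus strand, at chr14:55540016-55540315 for Pck2 and chr2:119350992-119351291 for Chac1.
Pck2: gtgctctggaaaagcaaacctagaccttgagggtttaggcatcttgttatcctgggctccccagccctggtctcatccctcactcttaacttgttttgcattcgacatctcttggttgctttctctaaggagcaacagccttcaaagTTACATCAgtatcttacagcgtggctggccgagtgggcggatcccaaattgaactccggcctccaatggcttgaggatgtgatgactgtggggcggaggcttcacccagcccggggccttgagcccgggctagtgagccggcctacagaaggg
Chac1: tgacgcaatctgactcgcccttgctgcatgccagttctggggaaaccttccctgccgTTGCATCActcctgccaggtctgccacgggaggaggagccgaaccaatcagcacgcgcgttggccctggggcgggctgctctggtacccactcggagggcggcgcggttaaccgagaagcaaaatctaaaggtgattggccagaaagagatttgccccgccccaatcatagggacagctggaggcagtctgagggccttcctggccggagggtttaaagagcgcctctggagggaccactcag

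Cytosolic aminoacyl-tRNA synthetases, which charge tRNAs and include several known Atf4 targets, differed less. Of 20 members, 11 were lower in both Dgcr8 libraries, against 22.9% of all genes, and 1 was higher, against 22%. The median was -0.29, with -0.09 in the first Dgcr8 library and -0.51 in the second. The letters TGATGNAA were found in 5 of the 12 members with a promoter in the RefSeq set (41.7%). Medians were -0.29 over members with a match and -0.19 over those without. The cysteinyl-tRNA synthetase Cars had 383 and 121.5 CPM in the Dgcr8 libraries and 465.1 and 457.1 CPM in WT. Among 21 chaperones and sensors of the unfolded protein response of the endoplasmic reticulum, 6 were lower in both Dgcr8 libraries, against 22.9% of all genes, and 0 were higher. Their median was -0.21, with 0.06 in the first Dgcr8 library and -0.48 in the second, and the WT libraries differed from each other by a median of 0.39 (first minus second). Cytosolic heat shock genes lay on the other side, with 11 of 19 members higher, against 22% of all genes. In this list 1 was lower, against 22.9%, and the median was 0.24. Hspa1a, an inducible Hsp70, had 2.41 and 14.5 CPM in the Dgcr8 libraries and 0.92 and 0.62 CPM in WT (log2 3.42, adjusted p = 0.273), and Hspb1, a small heat shock protein, had 193.9 and 285.9 CPM in the Dgcr8 libraries and 120.8 and 101.1 CPM in WT (log2 1.11, adjusted p = 0.317). No member of these 3 lists was called.

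Primitive and visceral endoderm genes were tested as markers of the extraembryonic endoderm cells that arise spontaneously in serum cultures of embryonic stem cells. Of 25 markers 16 were in the table, and 14 of these were lower in both Dgcr8 libraries than in both WT libraries, against 22.9% of all genes. None was higher, against 22%, and 0 were called, against 0.0729%. The median log2 fold change was -1.68, with -0.78 in the first Dgcr8 library and -4.05 in the second. Sox17, a transcription factor that specifies endoderm, had 4.84 and 0.6 CPM in the Dgcr8 libraries and 17.1 and 32.9 CPM in WT (log2 -3.04, adjusted p = 0.258). Gata4, a further endoderm regulator, had 11.5 and 1.99 CPM in the Dgcr8 libraries and 19.3 and 38.6 CPM in WT (log2 -2.01, adjusted p = 0.352). Lama1, a chain of the basement membrane protein laminin, had 1920 and 245.9 CPM in the Dgcr8 libraries and 3684 and 4312 CPM in WT (log2 -1.88, adjusted p = 0.368). The first Dgcr8 library stood between the second and WT in all 3, and the value of Sox17 in the second rests on 3 counts.

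The summed level of the 16 markers was 15600 and 7060 CPM in the Dgcr8 libraries and 21900 and 23100 CPM in WT. In bulk samples fewer endoderm cells and less of these mRNAs per cell cannot be told apart, and the share of this change in other results was not tested. The gap between the Dgcr8 libraries was wide for Cubn, an endocytic receptor of visceral endoderm chosen after its values were seen, at 577.7 and 11.4 CPM in the Dgcr8 libraries and 1052 and 980.5 CPM in WT. In the other 6 knockout libraries Cubn was between 0.21 and 6.99 CPM. The Drosha, Dicer and Ago1/2 medians of the list against the same WT libraries were -3.53, -4.15 and -3.75, and the direct differences, Dgcr8 minus each of them, had medians of 1.69, 2.37 and 1.97. By its list median the second Dgcr8 library was thus near the other knockouts and the first nearer to WT, while Dgcr8 itself had nearly the same level in both.

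**Figure D2:**
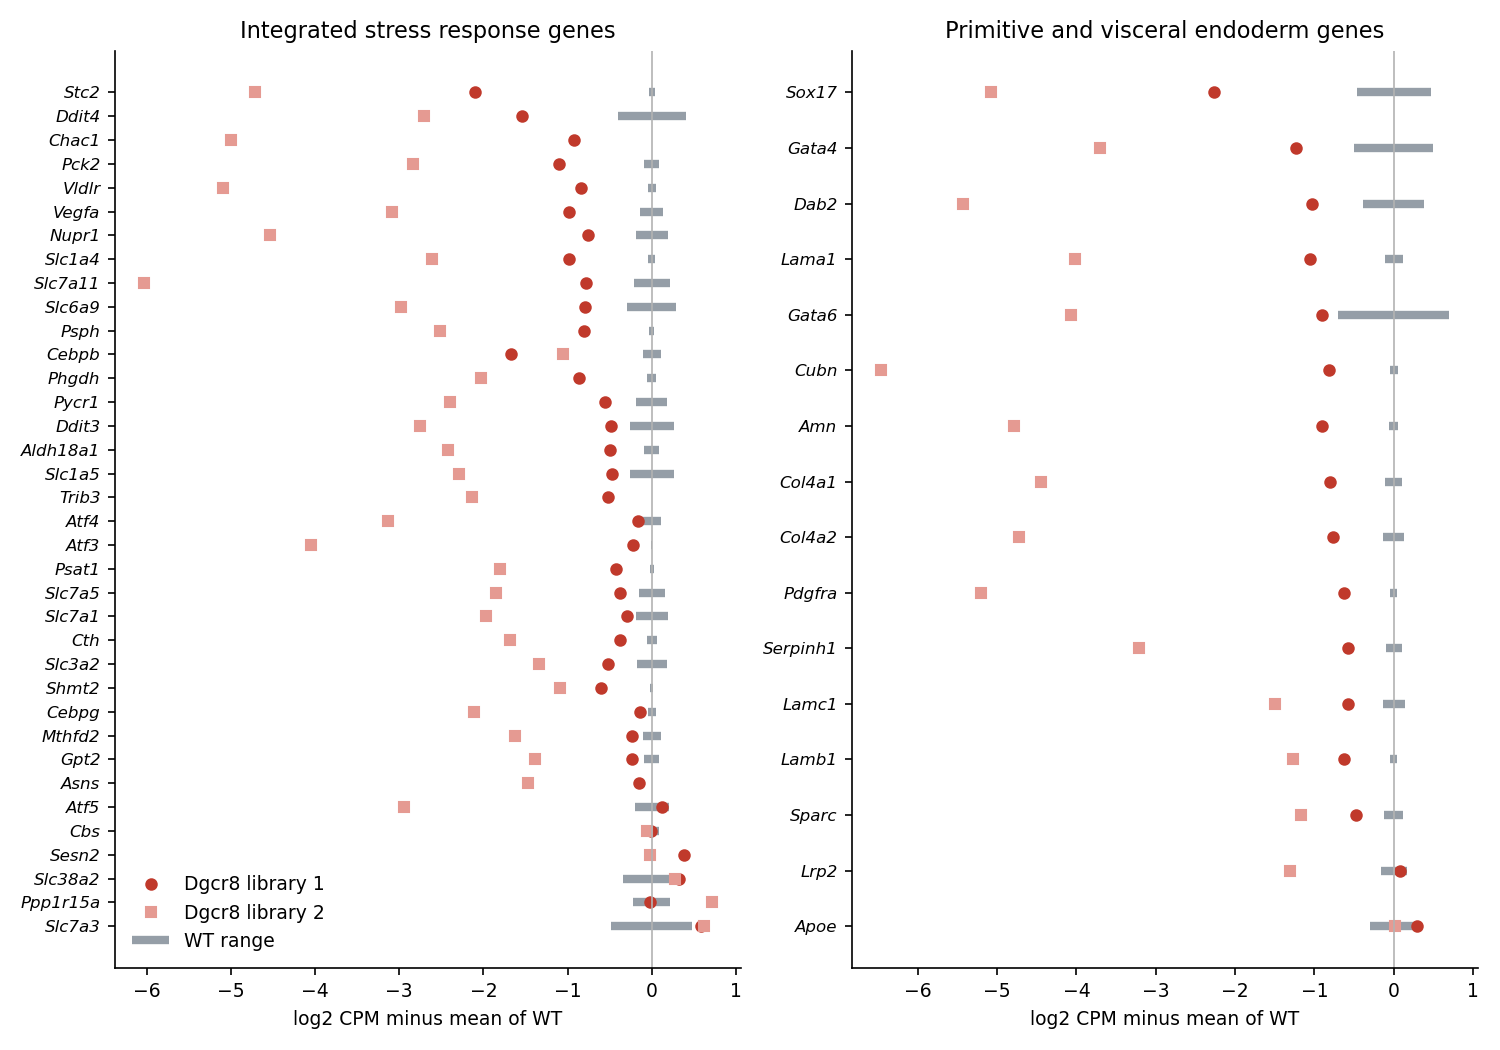
Difference of each Dgcr8 library from the WT mean in log2 CPM, for the 36 integrated stress response genes and the 16 endoderm markers tested; grey bars span the WT libraries. In both lists the second Dgcr8 library (squares) lies farther below WT than the first (circles), with list medians of -2.21 and -0.49 for the stress response and -4.05 and -0.78 for the endoderm markers.

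Markers of other cell types were mixed in direction. Their counts stand beside 22% of all genes higher in both Dgcr8 libraries than in both WT libraries and 22.9% lower. Of 8 trophectoderm markers tested, 2 were higher and 3 lower in both Dgcr8 libraries, of 8 fibroblast markers 2 and 4, of 9 neural markers 1 and 1, and of 15 germline genes 2 and 4, with medians of -0.14, -0.67, 0.26 and -0.09. Among the fibroblast markers Thy1, a surface glycoprotein, had 62.8 and 20.7 CPM in the Dgcr8 libraries and 126.4 and 114.2 CPM in WT, whereas the intermediate filament gene Vim had 337.5 and 360.2 CPM in the Dgcr8 libraries and 186.1 and 240 CPM in WT. Of 18 muscle and heart genes 6 were tested, of 12 mesoderm genes 1 and of 13 genes of the totipotent-like state 2. Beside the called Smyd1, the giant sarcomere protein gene Ttn had 312.4 and 163.8 CPM in the Dgcr8 libraries and 40.7 and 22.5 CPM in WT (log2 2.92, adjusted p = 0.21), and the muscle intermediate filament gene Des had 12.6 and 6.57 CPM in the Dgcr8 libraries and 32.4 and 40.2 CPM in WT (log2 -1.88, adjusted p = 0.258).

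Naive pluripotency genes, which mark embryonic stem cells, were mixed in direction. All 25 listed had enough counts to be tested, and 9 were higher and 5 lower in both Dgcr8 libraries, with a median of 0.11. Over all genes 22% were higher and 22.9% lower in both. Fbxo15, an early marker gene of the pluripotent state, had 471 and 574 CPM in the Dgcr8 libraries and 219.1 and 201.7 CPM in WT (log2 1.31, adjusted p = 0.214). The transcription factors Klf2 and Klf4 went opposite ways. Klf2 had 239.7 and 424.2 CPM in the Dgcr8 libraries and 142.3 and 146.5 CPM in WT (log2 1.20, adjusted p = 0.258), and Klf4 had 71 and 46.8 CPM in the Dgcr8 libraries and 135.1 and 157.6 CPM in WT (log2 -1.31, adjusted p = 0.258). Formative and primed genes had a median of 0.68 over 13 members, but of -0.16 in the first Dgcr8 library and 1.10 in the second, with 3 members higher and 2 lower in both.

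Sterol genes had similar list medians below WT in both Dgcr8 libraries. This list holds the enzymes of cholesterol synthesis and the receptors and sensors under Srebf2 control. Of 25 members, 17 were lower in both Dgcr8 libraries, against 22.9% of all genes, and 1 was higher, against 22%. At an unadjusted p under 0.05, 10 were lower, against 4.71% of all genes, and none was called. The median was -0.68, with -0.80 in the first Dgcr8 library and -0.67 in the second. The first library was below both WT libraries in 22 members (38.2% of all genes) and the second in 18 (42.3% of all genes). Single members could differ between them, as Msmo1 did, with 255.6 and 104.4 CPM in the Dgcr8 libraries and 539.9 and 411.5 CPM in WT. Insig1, the sterol sensor that retains Srebf2 in the endoplasmic reticulum, had 45.6 and 30.3 CPM in the Dgcr8 libraries and 102.7 and 116.1 CPM in WT (log2 -1.52, adjusted p = 0.258). Dhcr7, the last enzyme of one branch of the pathway, had 199.9 and 148.8 CPM in the Dgcr8 libraries and 411.6 and 371.9 CPM in WT (log2 -1.17, adjusted p = 0.316). In the Drosha, Dicer and Ago1/2 knockouts, which share the WT libraries, the medians were -0.61, -0.60 and -0.30. The letters TCACNCCAC of a sterol response element were found, on both strands, in 1 of 17 members with a promoter in the RefSeq set (5.88%), against 1.4% of genes tested. That member, Hmgcs1, had a log2 fold change of -0.06, and the median over those without a match was -0.68.

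Glycolysis and lactate export genes followed with 11 of 22 members lower, against 22.9% of all genes, and 1 higher, against 22%. The median was -0.49, and -0.23 without the second WT library. Aldoc, an aldolase, had 23.4 and 20.7 CPM in the Dgcr8 libraries and 45.5 and 75.1 CPM in WT. The glucose transporter gene Slc2a1 had 1654 and 2176 CPM in the Dgcr8 libraries and 4345 and 3294 CPM in WT (log2 -0.996, adjusted p = 0.334), and the lactate exporter gene Slc16a3 had 188 and 301.4 CPM in the Dgcr8 libraries and 569.4 and 481.3 CPM in WT (log2 -1.10, adjusted p = 0.299). Of 45 oxidative phosphorylation genes, 20 were lower, against 22.9% of all genes, and 5 higher, against 22%, with a median of -0.20. Of 44 translation factors, 17 were higher in both Dgcr8 libraries, against 22% of all genes, and 5 lower, against 22.9%. Their median was 0.21. Of 74 ribosomal protein genes 16 were higher, a share no larger than the 22% of all genes, and 5 lower, with a median of 0.22. Their median was 0.00 in the first Dgcr8 library, where 23 lay above both WT libraries and 24 below, and 0.39 in the second, where 47 lay above and 9 below. In each of these lists 0 members were called.

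**Figure D3:**
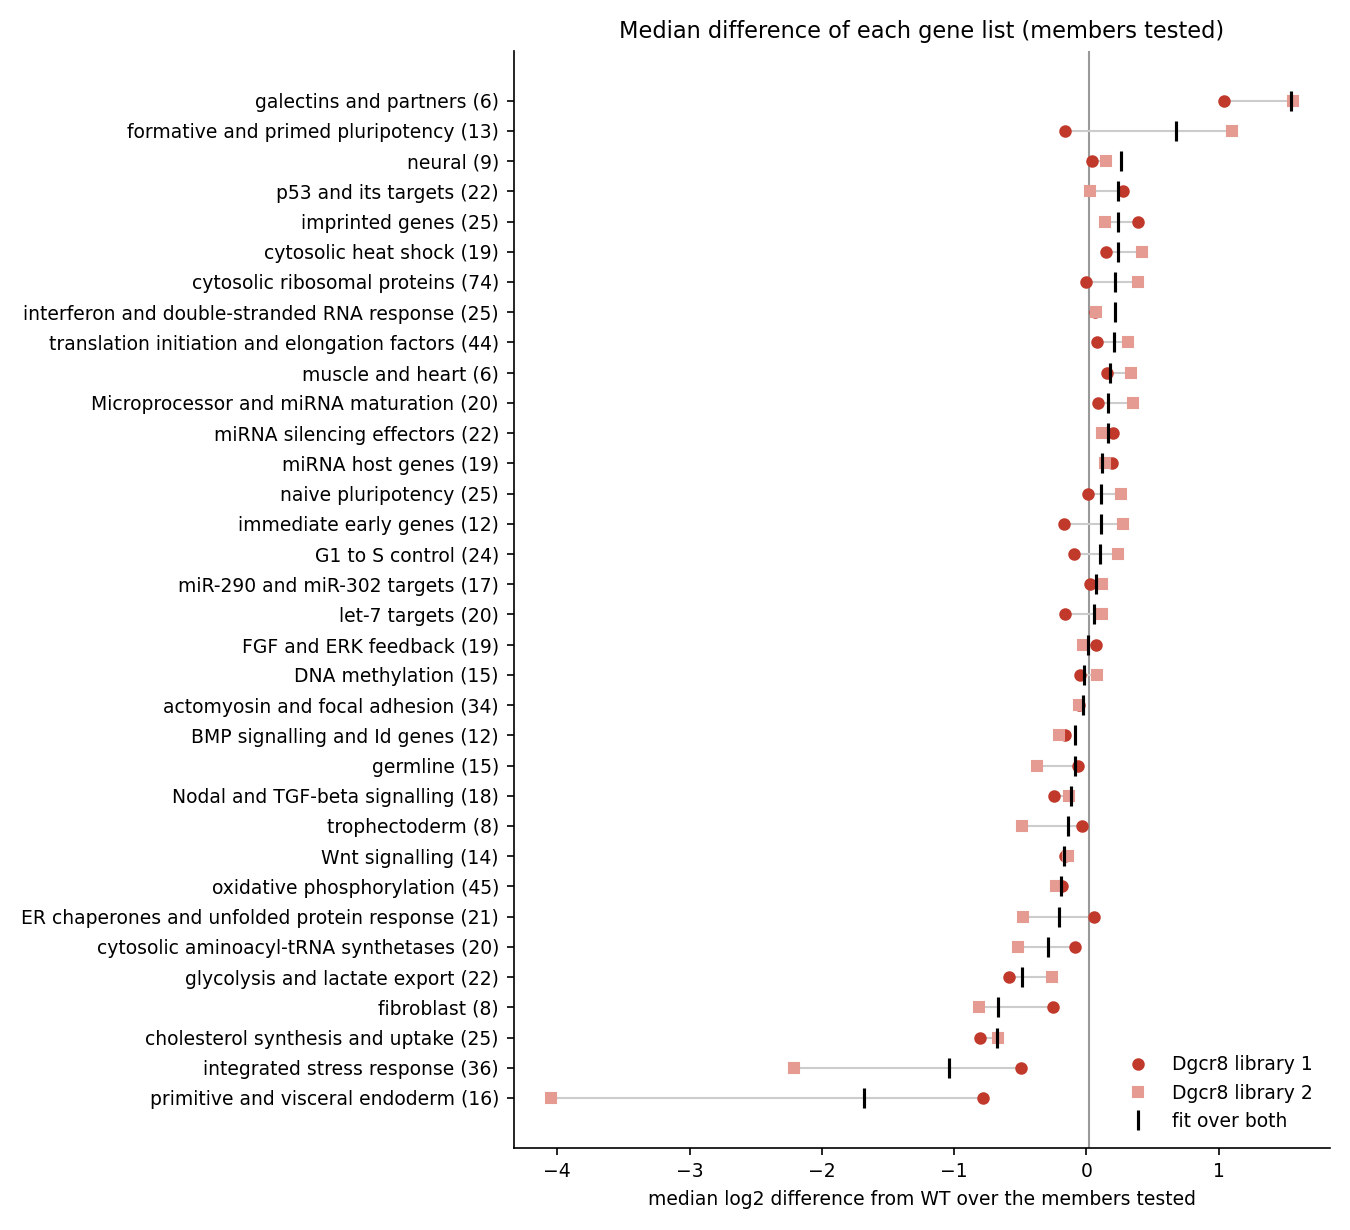
Median log2 difference from WT over the tested members of each of the 34 gene lists with at least 5 of them (number in brackets), for each Dgcr8 library and for the fit over both; the grey line marks the median of all genes, 0.02. Endoderm and stress response genes lie lowest and differ most between the Dgcr8 libraries, while cholesterol genes are at -0.80 and -0.67.

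Across the 34 lists with at least 5 tested members, 13 had a negative median in both Dgcr8 libraries, 13 a positive one in both and 8 were of opposite sign. The counts that follow stand beside 22% of all genes higher in both Dgcr8 libraries and 22.9% lower. Galectins had the highest median, 1.55 over 6 members, with 3 higher in both Dgcr8 libraries, 0 lower and Lgals3 called. Of 25 interferon and double-stranded RNA response genes 9 were higher and 5 lower, and the median was 0.22. In that list Ifitm3, a membrane protein that blocks virus entry, had 573.6 and 594.7 CPM in the Dgcr8 libraries and 183.5 and 67.7 CPM in WT (log2 2.22, adjusted p = 0.21), and Eif2ak2, the kinase PKR, had 16.2 and 11 CPM in the Dgcr8 libraries and 25.6 and 26.5 CPM in WT (log2 -0.92, adjusted p = 0.347). Of 25 imprinted genes 12 were higher and 7 lower, with Grb10 as the 1 called member and a median of 0.24. Peg3, a paternally expressed zinc finger gene, had 82.7 and 185.7 CPM in the Dgcr8 libraries and 32 and 49.6 CPM in WT (log2 1.71, adjusted p = 0.217), and Phlda2, a maternally expressed growth restrainer, had 48.9 and 88.3 CPM in the Dgcr8 libraries and 174.6 and 160.2 CPM in WT (log2 -1.30, adjusted p = 0.277). The host genes of miRNAs, 19 tested, had 6 higher, 5 lower and a median of 0.12. The remaining lists, on G1 to S control, p53, the BMP, FGF and ERK, Wnt, and Nodal pathways, immediate early genes, DNA methylation and the actin cytoskeleton, had medians between -0.17 and 0.24.

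Footprints of known miRNA targets were then read, since these are among the genes through which a loss of Microprocessor activity is known to act. Of 17 tested genes known as targets of miR-290 or miR-302, 5 were higher in both Dgcr8 libraries, against 22% of all genes, and 4 lower, against 22.9%, with 0 called and a median of 0.07. Lefty1, a Nodal inhibitor, had 10 and 69.5 CPM in the Dgcr8 libraries and 13.6 and 4.4 CPM in WT (log2 2.13, adjusted p = 0.559). The first Dgcr8 library lay inside the WT range and the second above it. The cell cycle inhibitor gene Hbp1 had 107.1 and 97.6 CPM in the Dgcr8 libraries and 66.7 and 65.8 CPM in WT (log2 0.63, adjusted p = 0.44). The medians of this list in the Drosha, Dicer and Ago1/2 knockouts, set against the same WT libraries, were 0.53, 0.67 and 0.68. Directly, Dgcr8 minus Drosha had a median of -0.41, Dgcr8 minus Dicer -0.94 with 2 members called lower, and Dgcr8 minus Ago1/2 -0.37. The let-7 targets, 20 genes, had a median of 0.06, with -0.16 in the first Dgcr8 library and 0.12 in the second. Of them 6 were higher and 3 lower in both Dgcr8 libraries, against 22% and 22.9% of all genes.

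The miRNAs whose sites were searched are shown with the seed in capitals, from RefSeq on GRCm38.p6. Of 14 looked for, 12 were matched. The 3 shown are a member of the main miRNA cluster of these cells, a miRNA of another cluster with a shifted form of its seed, and a miRNA of the let-7 family, which embryonic stem cells keep low.
mmu-miR-294-3p: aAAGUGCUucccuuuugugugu
mmu-miR-20a-5p: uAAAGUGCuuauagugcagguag
mmu-let-7a-5p: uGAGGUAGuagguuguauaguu
Of the listed targets, 6 held an 8-mer site of miR-294 in the 3′ UTR. The sites of 4 are shown in capitals with their flanks (GENCODE M21, GRCm38). They are at chr1:180938199-180938228 for Lefty1, chr1:180897903-180897932 for Lefty2 and chr8:91123816-91123844 for Rbl2, all on the plus strand, and at chr9:116087763-116087792 on the minus strand for Tgfbr2. They show what a full match to the seed looks like. Because the seeds of miR-294 and miR-20a overlap, their sites share the letters GCACTT.
Lefty1 site: tgcactgtatgcgaAGCACTTAcatgtata
Lefty2 site: catcacccagtttaAGCACTTAcatgggta
Rbl2 site: gtatttttcaataaAGCACTTAtaaatta
Tgfbr2 site: atatcaaaacctaaAGCACTTAttttcaat
Lefty2, a second Nodal inhibitor, had 4.28 and 50.2 CPM in the Dgcr8 libraries and 23.3 and 12.1 CPM in WT (log2 0.57, adjusted p = 0.894), and Rbl2, a pocket protein of the retinoblastoma family, had 6.69 and 6.18 CPM in the Dgcr8 libraries and 3.69 and 3.48 CPM in WT (log2 0.85, adjusted p = 0.606). Tgfbr2, a TGF-beta receptor, had 5.77 and 1.2 CPM in the Dgcr8 libraries and 9.59 and 9.46 CPM in WT (log2 -1.33, adjusted p = 0.54). Rbl2 was thus higher and Tgfbr2 lower in both Dgcr8 libraries, and neither passed. The other members with such a site were Mbd2, a methyl-CpG-binding protein, with 5.57 and 4.38 CPM in the Dgcr8 libraries and 5.99 and 7.72 CPM in WT (log2 -0.45, adjusted p = 0.816), and the cell cycle inhibitor gene Cdkn1a, with 38.7 and 35.5 CPM in the Dgcr8 libraries and 34.9 and 54.8 CPM in WT (log2 -0.27, adjusted p = 0.854). Mbd2 was lower in both Dgcr8 libraries, and for Cdkn1a the groups overlapped, as for Lefty1 and Lefty2.

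Over all 10933 genes with an annotated 3′ UTR, 365 held an 8-mer site of miR-294 and 8872 held no site. The median log2 fold change in the Dgcr8 libraries was 0.07 with an 8-mer site, 0.05 over 1696 genes with a 7-mer site at best, and 0.01 with none. Both Dgcr8 libraries were above both WT libraries in 29.6% of the 8-mer genes and 21.2% of the genes without a site, and below them in 17.3% and 23.2%. In the Drosha, Dicer and Ago1/2 knockouts, with the same WT libraries, the 8-mer medians were 0.23, 0.38 and 0.28, beside -0.03, -0.05 and 0.02 without a site. Dgcr8 minus Drosha had a median of -0.15 over the 8-mer genes, Dgcr8 minus Dicer -0.33, and Dgcr8 minus Ago1/2 -0.20, beside 0.04, 0.08 and 0.00 over genes without a site. Genes with a site had longer 3′ UTRs (median 2644 bases for 8-mer genes, 754 without a site), and the part of length in these medians was not tested. Of the other families, miR-92a had a median of 0.12 over 274 8-mer genes and miR-20a one of 0.08 over 453, while let-7a had -0.04 over 360. These were the 2 highest and the lowest of the 12 miRNAs matched. For miR-9, included for comparison, the median was -0.04 over 425 8-mer genes, with a median 3′ UTR of 2277 bases. Of these genes 20.5% were higher and 25.6% lower in both Dgcr8 libraries.

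**Figure D4:**
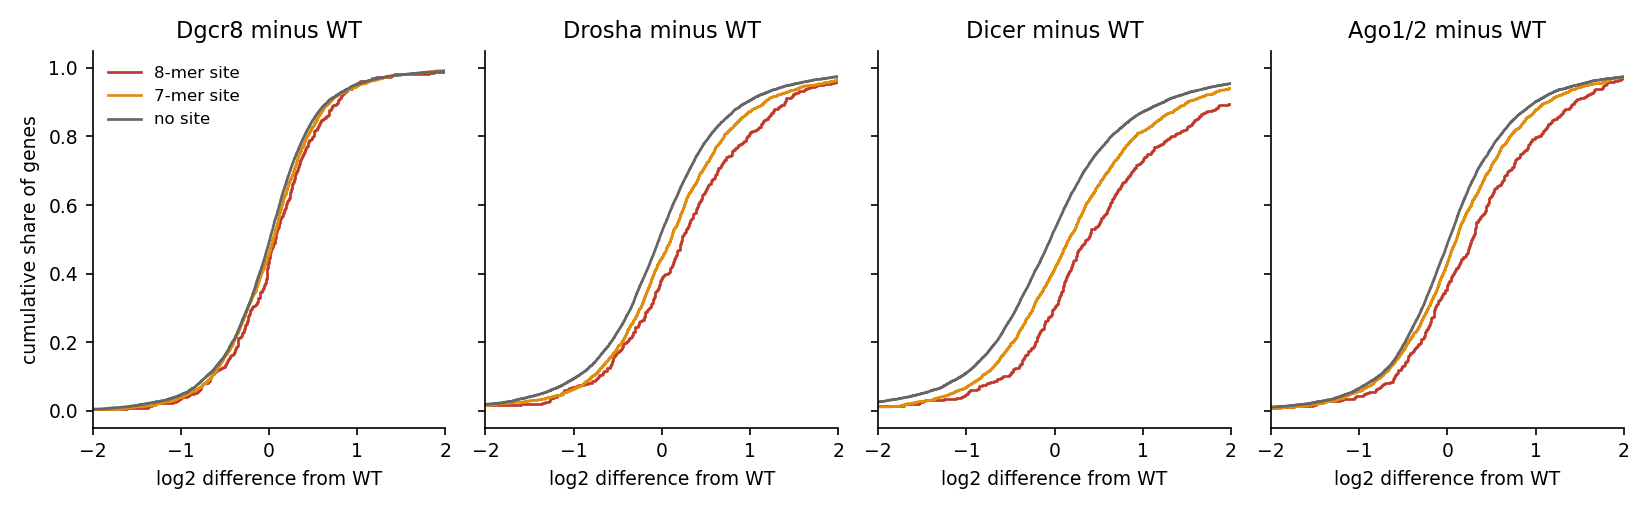
Cumulative share of genes by log2 difference from WT for genes with an 8-mer, a 7-mer or no site of miR-294 in the 3′ UTR, in each knockout against the shared WT libraries. The 8-mer curve lies close to the curve without a site for Dgcr8 (medians 0.07 and 0.01) and to the right of it for Drosha, Dicer and Ago1/2 (0.23, 0.38 and 0.28).

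How the Dgcr8 libraries differed from the other knockouts was tested directly. Against Drosha, the other Microprocessor subunit, 55 genes were called (0.501%), of which 11 were higher in the Dgcr8 libraries (0.1%) and 44 lower (0.401%). Against Dicer 447 were called (4.07%), 97 higher (0.884%) and 350 lower (3.19%), and against Ago1/2 53 were called (0.483%), 14 higher (0.128%) and 39 lower (0.355%). These counts depended on single libraries as well. Leaving out Dgcr8 library 1 gave 4, 108 and 8 calls against Drosha, Dicer and Ago1/2, and leaving out Dicer library 1 gave 20, 12 and 26, and Dicer library 2 gave 9, 225 and 23. Without WT library 1 they were 16, 259 and 26, and without WT library 2 they were 14, 254 and 22. Against Drosha, the count was 19 without Drosha library 1 and 23 without Drosha library 2. Against Ago1/2 it was 98 without Dgcr8 library 2, 31 without Drosha library 1 and 26 without Ago1/2 library 2. Apart from the targeted genes, genes lower in the Dgcr8 libraries in all 3 of these contrasts included Msln, a surface protein of mesothelium, with 6.51 and 13.7 CPM in the Dgcr8 libraries, 349.8 and 153.8 CPM in Drosha, 495.8 and 366.8 CPM in Dicer, 150.4 and 89.8 CPM in Ago1/2, and 4.43 and 4.11 CPM in WT. Its log2 differences from the 3 knockouts were -4.70, -5.48 and -3.63 (adjusted p = 0.00846, 0.00358 and 0.0146, edgeR), and against WT it was 1.18 (adjusted p = 0.449). Smyd1, which rose against WT, was nevertheless lower than in Drosha (log2 -3.23, adjusted p = 0.00846), Dicer (-3.29, adjusted p = 0.00399) and Ago1/2 (-2.66, adjusted p = 0.0155).

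Other genes differed from single knockouts. Krt8, a simple epithelial keratin, had 36.3 and 24.5 CPM in the Dgcr8 libraries, 331.6 and 207.4 CPM in Dicer and 26.8 and 36.5 CPM in WT (Dgcr8 minus Dicer log2 -3.14, adjusted p = 0.0037). Mest, a paternally expressed hydrolase gene that hosts a miRNA, had 184.1 and 299.2 CPM in the Dgcr8 libraries, 8.77 and 0.47 CPM in Ago1/2 and 71.9 and 43 CPM in WT (Dgcr8 minus Ago1/2 log2 5.78, adjusted p = 0.0309). Impact, at 1.46 above Ago1/2 (adjusted p = 0.0379), was higher there as well, whereas against WT its difference of 1.41 did not pass. Ctcfl, a testis paralog of the insulator protein CTCF, had 6.13 and 1.99 CPM in the Dgcr8 libraries, 70 and 182.7 CPM in Ago1/2 and 0.74 and 1.41 CPM in WT (Dgcr8 minus Ago1/2 log2 -4.82, adjusted p = 0.0133, edgeR).

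Differences also followed the chromosomes. The 614 genes of chromosome 1 had a median log2 fold change of -0.40 in the Dgcr8 libraries, with -0.38 in the first and -0.46 in the second, and 58% of them were lower in both Dgcr8 libraries than in both WT libraries, against 22.9% of all genes. The WT libraries also differed from each other there, by a median of -0.16 (first minus second). In the Drosha, Dicer and Ago1/2 knockouts the chromosome 1 medians against the same WT libraries were -0.44, -0.36 and -0.44, and the direct differences, Dgcr8 minus each, were -0.01, -0.03 and 0.02. Chromosome 15 differed in another way, with medians of 0.04 in the Dgcr8 libraries, but 0.38, 0.33 and 0.48 in the other knockouts against WT, and direct differences of -0.38, -0.30 and -0.38. Leaving out chromosome 1 was an alternative added after the data were seen. Of all genes, 2154 were then lower in both Dgcr8 libraries, in place of 2510. With 1 stress response gene and 2 endoderm markers left out, 29 and 12 were lower, in place of 30 and 14. For oxidative phosphorylation, with 5 left out, 16 were lower in place of 20. For aminoacyl-tRNA synthetases, with 3 left out, 8 were lower in place of 11. The median of miR-290 and miR-302 targets became -0.01 in place of 0.07, with 2 left out.

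**Figure D5:**
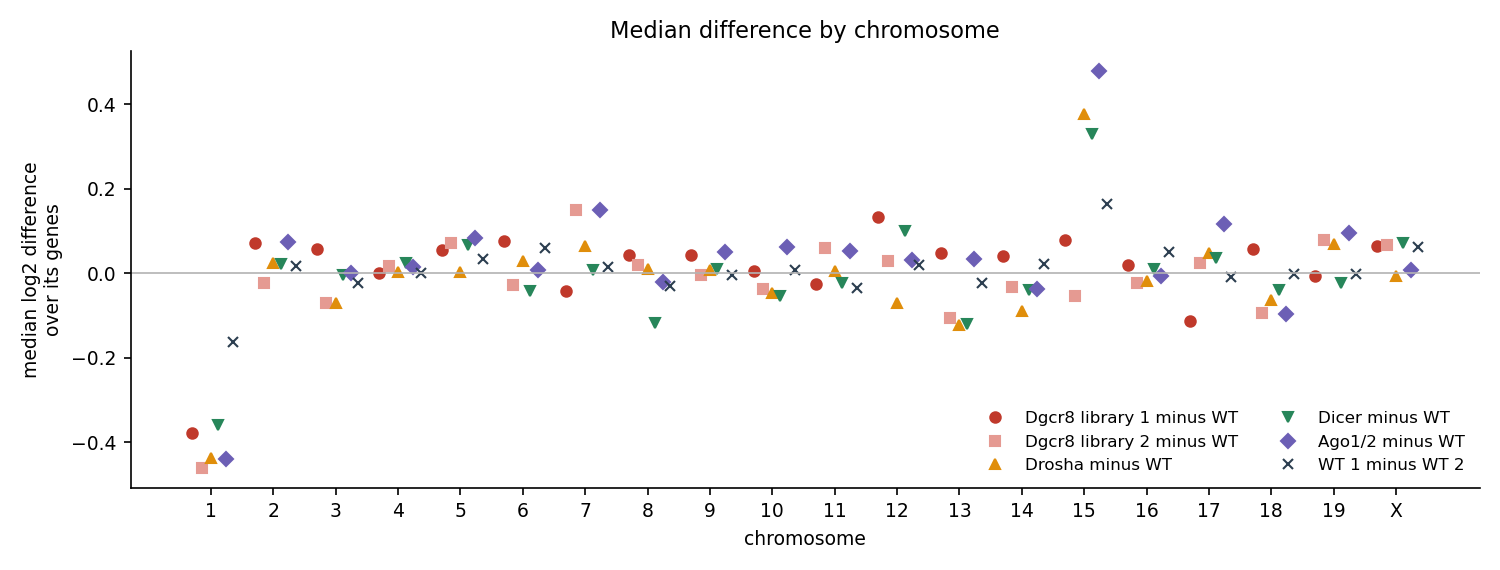
Median log2 difference over the tested genes of each chromosome except Y, for each Dgcr8 library and the other knockouts against WT and between the WT libraries. On chromosome 1 every knockout lies between -0.36 and -0.46, and on chromosome 15 the Dgcr8 libraries stay near 0 while the others lie between 0.33 and 0.48.

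Of the 5 genes of chromosome Y that were tested, 4 were lower in both Dgcr8 libraries than in both WT libraries, against 22.9% of all genes. Uty, a histone demethylase gene, had 1.11 and 0.4 CPM in the Dgcr8 libraries and 24.4 and 7.38 CPM in WT (log2 -4.06, adjusted p = 0.0623), and Ddx3y, an RNA helicase gene, had 5.95 and 0.2 CPM in the Dgcr8 libraries and 32.9 and 10.4 CPM in WT (log2 -2.50, adjusted p = 0.308). WT was itself uneven for both genes, and the second Dgcr8 library held 2 counts of Uty and 1 of Ddx3y, so these folds are imprecise. Uty was called lower directly against Drosha (45.4 and 27.5 CPM; log2 -5.27, adjusted p = 0.0107), Dicer (57.7 and 33.7 CPM; log2 -5.61, adjusted p = 0.00399) and Ago1/2 (44.2 and 26.8 CPM; log2 -5.23, adjusted p = 0.0133, edgeR). The cause of the chromosome differences was not tested, and close paralogs on chromosome X can share reads with these genes.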

How the data were processed

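Ribosome-protected fragments were isolated after cycloheximide and RNase I treatment, depleted of ribosomal RNA and sequenced from small RNA libraries with Drosophila spike-ins, per the labels' protocols. The tools Trimmomatic and Bowtie2 and the builds mm10 (GRCm38) and dm6 (BDGP6) are named, without version or role, per the submitters' processing notes. In the deposited table the authors give whole-number counts of reads per gene for 10 libraries without normalization. The counting tool, annotation and strand setting are not given in the sources used here, so reads of overlapping genes and close paralogs cannot be told apart.

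Columns were matched to labels by the library numbers printed in both. The test was edgeR 4.0.16 under R 4.3.3. TMM scaled the library sizes, filterByExpr removed 33 genes, and a quasi-likelihood model with 1 mean for each of the 5 groups was fitted to all 10 libraries, with 5 residual degrees of freedom and a biological coefficient of variation of 0.306. Tests were 2-sided with Benjamini-Hochberg adjustment over all 10978 genes at 0.05. Each SE was computed as the size of the log2 fold change divided by the square root of its F statistic. CPM use the scaled sizes. A floor of 3 counts corresponds to 0.0371 and 0.605 CPM in the Dgcr8 libraries and 0.271 and 0.126 CPM in WT, and covers counting error only. The script was tested on simulated counts.

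Named were the targeted genes, the called genes, the 12 genes per direction with the smallest unadjusted p among those reaching 20 CPM in the higher group with no overlap of the groups, and up to 4 members per list with the smallest p. Predicted genes were skipped. The members and all 36 gene lists were chosen with earlier results of these data known, and lists were described by counts and medians without a test. Chac1, Atf4, Cubn, the targets with an 8-mer site, Uty, Ddx3y, Msln, Krt8, the stress response genes outside its pattern, and chromosomes 1, 15 and Y were chosen after their values were seen. Seed sites were sought in the 3′ UTR of the transcript with the longest coding sequence in GENCODE M21. Alternatives were total-count scaling, DESeq2 1.42.0 size factors and test, limma 3.58.1 voom, other filters, the 4 libraries alone, a replicate block, a library-number block, thinned counts and leaving out each library.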

Additional observations from a re-analysis of the deposited data

How the results depend on the processing

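The 8 calls between Dgcr8 and WT became 160 with DESeq2, 15 with limma-voom, 14 with the replicate block and 0 in the 4 libraries alone, where 1335 genes had an unadjusted p under 0.05, and ranged over 0 to 107 when single libraries were left out. Other scalings and filters gave 8 or 9, all 8 among them. Thinned counts also gave 8, but only 6 of these were among the 8 of the main fit. Dgcr8 lost its call in the 4 libraries alone (log2 2.14, adjusted p = 0.0975), and without single libraries its log2 value was 2.14 to 2.16. The other 7 called genes kept their side of the threshold in 97 of 133 alternatives and lost it in 36, with no change of sign. The 55 calls against Drosha became 310 with DESeq2, 27 with limma-voom, 175 with the replicate block and 21 with thinned counts, and 4 to 77 without single libraries. The 447 against Dicer became 893 with DESeq2 and 779 with the block, and 12 to 544 without single libraries. The 53 against Ago1/2 became 359 with DESeq2, 436 with limma-voom, 200 with the block and 33 with thinned counts, and 8 to 98 without single libraries. The cause was not tested. Same-numbered Dgcr8 and WT libraries deviated together with a correlation of 0.109, Dgcr8 and Drosha ones with 0.061, Dgcr8 and Dicer ones with 0.208 and Dgcr8 and Ago1/2 ones with 0.144. The replicate numbers are those of the sample titles, and the column names number the Ago1/2 libraries otherwise. The labels do not say that a replicate number marks a shared batch. The library numbers in the labels fall in the runs 28 to 31, 37 to 41 and 52, with no meaning stated. With the run as a block, added after the data were seen, the calls became 33 against WT, all 8 among them, 207 against Drosha, 919 against Dicer and 387 against Ago1/2. The cholesterol median became -0.50 with thinned counts and -0.80 to -0.66 without single libraries, the endoderm median -4.17 to -0.785, that of glycolysis -0.62 to -0.23 and that of miR-290 and miR-302 targets 0.0197 to 0.141. The difference of miR-294 8-mer genes from genes without a site was 0.0595, and 0.0425 with 7-mer sites included and 0.0636 to 0.0943 without single libraries. Drosha reversed to -0.1032 without the second Dgcr8 library, and was 0.6064 without the first. A floor of 3 counts corresponded to 0.0371 CPM in the first Dgcr8 library and 0.605 CPM in the second.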

Other observations

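Several genes separated the 2 Dgcr8 libraries from each other, and were chosen for that difference. Srgn, a secretory granule proteoglycan, had 56.5 and 0.598 CPM in the Dgcr8 libraries and 82.5 and 85 CPM in WT, and lay between 0.528 and 4.35 CPM in the other knockout libraries. Klb, a co-receptor for endocrine FGFs, had 38.5 and 0.598 CPM in the Dgcr8 libraries and 55.7 and 56.2 CPM in WT. Ctsh, a lysosomal protease, had 56.1 and 1.59 CPM in the Dgcr8 libraries and 53.6 and 59.7 CPM in WT. In these 3 genes the first Dgcr8 library was near WT. Rhox6, an X-linked homeobox gene, went the other way, with 2.05 and 50.2 CPM in the Dgcr8 libraries and 2.3 and 2.03 CPM in WT, and between 7.71 and 60.1 CPM in the other knockout libraries.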
